A study of Mus musculus with 16 samples.

Results

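Assembled loci are stretches of the mouse genome that were assembled from RNA reads and entered the count table under no Ensembl identifier. Their identifier begins with MSTRG, a prefix that the assembler StringTie gives to loci it builds. Members were chosen by their identifier and by their raw counts: a sum over all 16 libraries of 10 or more. They numbered 4476 of the 35943 assembled loci in the table, which had 89407 rows in all. The files used here give these loci neither position, strand, length nor sequence, so each is described by its identifier and its counts. Whether a locus overlaps an Ensembl gene, on the same or the other strand, could therefore not be checked. Levels are compared between libraries for the same locus, never between loci.

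Medullary thymic epithelial cells (mTEC) present self-proteins of the whole body to developing T cells, so that T cells reactive to them can be removed. To do this they transcribe a large number of genes that are otherwise restricted to a peripheral tissue, a habit called promiscuous expression. It is strongest in mature mTEC, which carry much MHC class II and the autoimmune regulator AIRE. RBFOX1 and RBFOX2 are RNA-binding proteins that steer alternative splicing.

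The series held 16 libraries, a mature and an immature mTEC library from each of 8 mice. Among the animals were 2 Rbfox1 thymus knockout (tKO) mice (Rbfox1 lox/lox with Foxn1 wildtype/cre, numbered 2 and 3), 2 controls of that line (Rbfox1 lox/lox with Foxn1 wildtype/wildtype, numbered 2 and 3), and likewise 2 Rbfox2 tKO mice and 2 Rbfox2 lox/lox controls, numbered 1 and 2. All 8 mice therefore carried floxed alleles of 1 RBFOX gene, Cre came from the Foxn1 locus, which is active in thymic epithelium, and presence of Cre could not be told apart from loss of the gene. By the labels the mice were 4 to 6 weeks old and C57BL/6, with 1 male and 1 female in each genotype of a line. The study's methods instead give an age of 4 weeks and a mixed 129S2/Sv and C57BL/6J background. For each library 10000 cells were sorted as CD45-, EpCAM+, Ly51-, UEA+ cells with high (mature) or low (immature) MHC class II, and poly(A) RNA was sequenced in stranded, paired-end libraries.

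Library totals ran from 3737884 to 4636367 counts in mature and from 1506134 to 2430287 in immature mTEC, so depth went with population. Levels are given in CPM, counts scaled to the library's total, after TMM scaling. Aire stood at 635 to 1573 CPM in mature and 19.5 to 297 CPM in immature libraries, and keratin 5 at 434 to 718 against 3193 to 4777 CPM. Ccl21a, a chemokine gene that marks immature mTEC, stood at 2.96 to 7.85 CPM in mature and 75.7 to 140 CPM in immature libraries, summed over the 2 Ensembl rows with that symbol, between which reads of near-identical copies may be split. Rbfox2 fell in Rbfox2 tKO mice, from 56.6 and 57.6 to 9.49 and 16.1 CPM in mature mTEC. Rbfox1 counts, which cover the whole gene, stood at 33.9 and 29.7 CPM in mature mTEC of Rbfox1 tKO mice against 52.2 and 48.2 CPM in controls, without overlap but not called (log2 difference -0.66 ± 0.14, SE; edgeR's quasi-likelihood test, Benjamini-Hochberg adjusted p = 0.242). In immature mTEC they stood at 151 and 152 against 163 and 159 CPM, close to the controls. The libraries of a condition came from separate mice and no library was a copy of another.

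Most assembled loci were silent or nearly so in these cells. Of the 35943, 18725 had no count in any library and 12742 had 1 to 9 counts, which left 12.5% as members. Of Ensembl genes, 44.7% reached 10 counts. The members' summed counts had a median of 24, with quartiles of 14 and 55, against a median of 427 in the 23916 Ensembl genes that passed the same limit. The limit ran through a dense range, with 297 loci at exactly 10 counts and 368 at 9. Counts were concentrated at the top: 1234 members had 50 or more, 616 had 100 or more and 41 had 1000 or more, and the 10 largest held 17.0% of the 370142 counts of all members. Because mature libraries were deeper, a limit on the sum admits a locus of mature mTEC more readily than one of immature mTEC. Numbers of loci detected are therefore given below at equal depth, and the mature index beside Ensembl genes of the same summed count. The limit on the sum also used the samples compared here, and the assembly itself had been built from mTEC and peripheral tissues.

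Assembled loci took a larger share of the transcriptome in mature mTEC. Their counts made up 0.906% ± 0.068 of a mature library (SD, n = 8 mice) and 0.397% ± 0.047 of an immature library. The share was higher in the mature library of 8 of 8 mice, by 0.438 to 0.607 percentage points, and the ratio of both shares within a mouse averaged 2.30. Since the limit on summed counts used these libraries, the test was made on all 35943 assembled loci without it. Their share was 0.995% ± 0.079 in mature and 0.437% ± 0.051 in immature mTEC (SD), higher in the mature library of 8 of 8 mice (exact sign-flip test over mice, two-sided, p = 0.0078125, the smallest that 8 mice allow). Among members the lowest mature share, 0.821%, lay above the highest immature share, 0.484%.

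Annotated classes moved less or the other way. Long non-coding Ensembl genes held 1.13% ± 0.084 of a mature library's counts against 0.746% ± 0.071 in immature mTEC (SD over 8 mice), a ratio of 1.52. Ensembl pseudogenes were lower in mature mTEC, at 1.08% against 1.44%. Set against the long non-coding genes of the same mouse, the log2 ratio of mature to immature share was larger for all assembled loci, taken without the limit, in 8 of 8 mice, by 0.59 ± 0.15 (SD; exact sign-flip test, two-sided, p = 0.0078125, a comparison chosen after the values were seen). Assembled loci thus differed from long non-coding genes beyond the spread between mice.

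The number of loci detected followed the same course once depth was made equal. Each library was thinned at random to 1506134 counts, the total of the shallowest. At that depth 2783 ± 112 members had at least 1 count in mature mTEC, against 1290 ± 118 in the immature libraries (SD over 8 mice), a ratio of 2.17 that ran from 2.01 to 2.36 between mice. Protein-coding genes over the same limit gave a ratio of 1.15 in these thinned libraries and long non-coding genes one of 1.46. These ratios were not matched by summed count, whose median was 427 in all Ensembl genes over the limit and 24 in members. A gene with many counts is detected in nearly every library, which holds its class near a ratio of 1. For all 35943 assembled loci, with no limit, 4013 ± 276 had a count in thinned mature libraries, against 1832 ± 198 in immature ones, a ratio of 2.20 (SD; exact sign-flip test over 8 mice, two-sided, p = 0.0078125, the smallest possible; an alternative added after the values were seen). Thinned libraries of mature mTEC held 2649 to 2959 members and those of immature mTEC 1122 to 1472, without overlap. In thinned libraries 1578 members (35.3%) had no count in any immature library and 73 (1.63%) none in any mature library, against 9.21% and 0.468% of Ensembl genes over the same limit. Counts in all 8 mature and in none of the 8 immature libraries were found for 148 members (3.31%), against 1.69% of these Ensembl genes. At the deposited, unequal depth these numbers of members were 1390, 4 and 570. The shares of Ensembl genes set beside members here were not matched by summed count either.

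**Figure D1:**
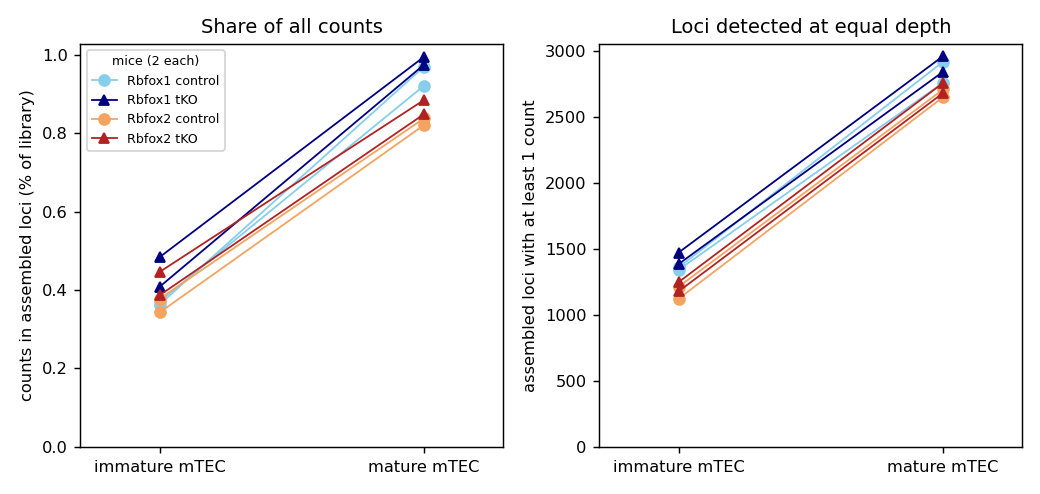
Left, counts in the 4476 assembled loci as a percent of all counts of a library, and right, the number of these loci with at least 1 count after thinning every library to 1506134 counts. Each line joins the immature and the mature library of 1 mouse, and colour and symbol give line and genotype. All 8 lines rise, from 0.343% to 0.484% up to 0.821% to 0.995% on the left and from 1122 to 1472 up to 2649 to 2959 on the right.

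Bias towards mature mTEC was also the rule locus by locus. A mature index was computed as the mean mature CPM divided by the sum of the mean mature and mean immature CPM, in percent, so that 50 means equal levels and 100 a locus without any count in immature mTEC. Over all 4476 members, with no filter beyond the limit, the median index was 87.4%, with quartiles of 60.1% and 100%. It exceeded 90% in 2058 members (46.0%), lay between 40% and 60% in 534 (11.9%) and was under 10% in only 70 (1.56%). Long non-coding genes over the same limit had a median of 69.5% and protein-coding genes one of 53.0%.

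The summed count changed this contrast, since protein-coding and long non-coding genes of low count also leaned towards mature mTEC, whereas pseudogenes of 10 to 19 counts had a median index of 54.7% and Ensembl genes of the provisional class TEC (a biotype name, not the cell type) one of 48.8%. Among rows with 10 to 19 summed counts the median index was 85.7% in members and 95.6% in protein-coding genes, so the assembled loci did not stand above the coding genes there. From 20 to 49 counts the medians were 89.1% and 87.1%. The classes came apart with more counts: from 100 to under 1000 counts members had a median of 87.7% (n = 575), protein-coding genes 57.7% (n = 6180) and long non-coding genes 62.2% (n = 631). At 1000 or more counts the 41 members had a median of 75.8%, against 48.9% in 8657 protein-coding genes. These are descriptions over rows, which are not replicates, and no test was made on them.

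**Figure D2:**
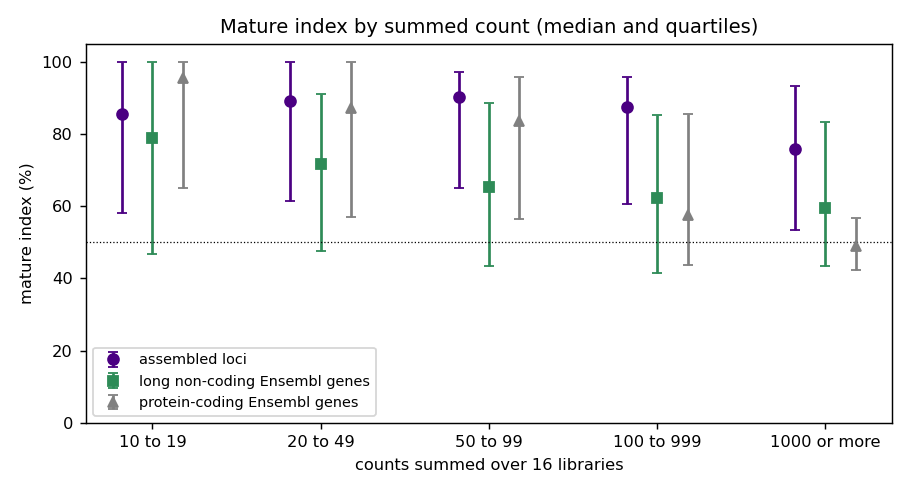
Mature index, the mean mature CPM as a percent of the sum of mean mature and mean immature CPM, for assembled loci and 2 classes of Ensembl genes, by their counts summed over 16 libraries. Points are medians over rows and bars reach from the lower to the upper quartile. The index of assembled loci stays between 75.8% and 90.2% in every bin, whereas that of protein-coding genes falls from 95.6% to 48.9%.

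The 10 loci with the largest summed count ran from strongly higher in mature mTEC to about even. MSTRG.85509, with 10246 counts, stood at 286 ± 50 CPM in mature mTEC of control mice and at 16.8 ± 9.9 CPM in their immature mTEC (SD, n = 4 mice). Its counts in mature mTEC were 1470 and 1602 in Rbfox1 and 1020 and 1022 in Rbfox2 controls, and in immature mTEC 52, 69, 15 and 15. The groups were far apart, by 4.26 ± 0.11 on the log2 scale (SE; edgeR's quasi-likelihood test, Benjamini-Hochberg adjusted p = 5.74e-16). MSTRG.113699, MSTRG.73425, MSTRG.87673 and MSTRG.105366 were likewise higher in mature mTEC, by 2.48 to 4.18 on the log2 scale, with adjusted p from 1.13e-12 to 1.82e-11 in that test.

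Others of the 10 were nearly even between the populations. MSTRG.64863, whose 14081 counts were the largest sum, stood at 223 ± 33 CPM in mature against 269 ± 82 CPM in immature mTEC of control mice (SD, n = 4), and MSTRG.52583 at 67.2 ± 10 against 79.1 ± 30 CPM. Their control groups overlapped, and neither passed the threshold of an adjusted p under 0.05 with a fold over 2. MSTRG.44606 was 0.64 ± 0.092 higher in mature mTEC on the log2 scale and MSTRG.59595 0.78 ± 0.15 (SE), both under the fold required. MSTRG.18400 lay between these and the strongly biased loci, at 183 ± 26 against 62.5 ± 15 CPM in control mice, a log2 difference of 1.57 ± 0.11 (SE; edgeR's quasi-likelihood test, Benjamini-Hochberg adjusted p = 2.95e-10).

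**Figure D3:**
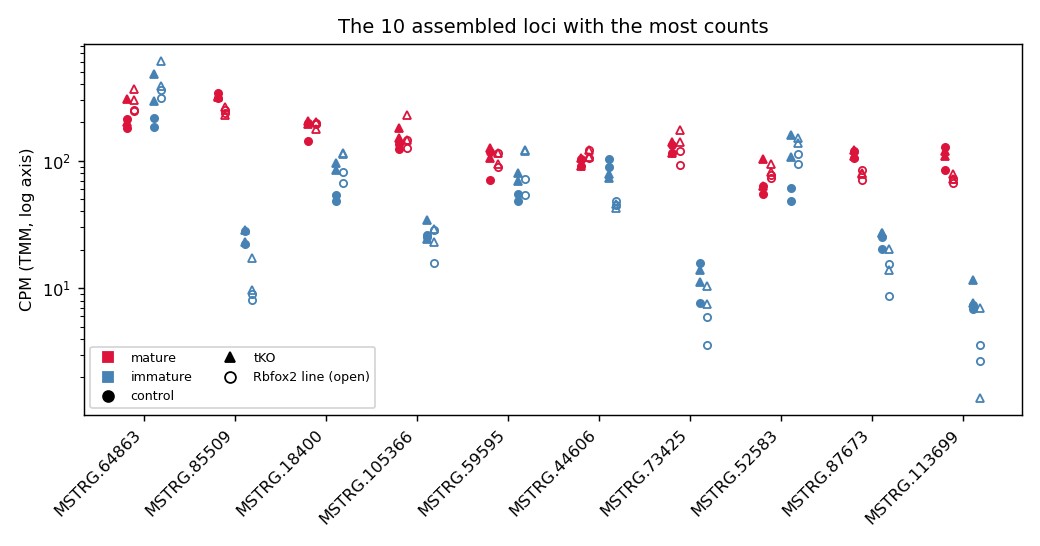
CPM after TMM scaling, on a log axis, of the 10 assembled loci with the most counts, in all 16 libraries. Red marks mature and blue immature mTEC, circles controls and triangles tKO mice, and open symbols the Rbfox2 line. MSTRG.85509, MSTRG.73425 and MSTRG.113699 separate by population, whereas MSTRG.64863 and MSTRG.52583 overlap and reach their highest values in immature mTEC of tKO mice.

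In the test of mature against immature mTEC in control mice, 613 members had enough counts to be tested and 3863 did not. Of those tested, 416 were called higher and 75 lower in mature mTEC, beside a background of 37.8% called over all 16750 rows tested (26.8% higher and 11.1% lower). A locus could pass the filter on low counts through the population in which it was high, and then had to differ, so these counts describe the loci tested and say nothing of the rest. With no filter on low counts, 1231 of all 4476 members were called, beside a background of 18.6% of 45899 rows. Within a line, 459 of the 613 members were called in the Rbfox1 controls (background 35.0%) and 460 in the Rbfox2 controls (background 38.0%).

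The loci with the greatest bias had no count in immature mTEC of control mice. MSTRG.68094 had 29, 68, 59 and 50 counts in mature mTEC of the 4 control mice and none in their immature libraries. Against a floor of 3 counts over the 4 immature libraries, its level was at least 33.4-fold higher in mature mTEC. MSTRG.7234 had 31 to 70 counts against 0 (at least 32.2-fold), MSTRG.9660 26 to 63 against 0 (at least 29.6-fold), MSTRG.57750 29 to 42 against 0 (at least 24.0-fold) and MSTRG.27273 21 to 49 against 0 (at least 21.4-fold). All 5 passed the filter on low counts through mature mTEC alone, so their differences are given as a description. The tKO mice, which took no part in the choice of these loci, had 17 to 74 counts in mature and 0 to 3 counts in immature libraries for the same 5.

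A smaller set was made in immature mTEC. MSTRG.49704 had 26, 27, 24 and 30 counts in mature mTEC of control mice and 183, 152, 153 and 153 in their immature libraries, in spite of the lower depth of the latter. This was 6.06 ± 0.87 against 78.5 ± 12 CPM (SD, n = 4), a log2 difference of -3.69 ± 0.14 (SE; edgeR's quasi-likelihood test, Benjamini-Hochberg adjusted p = 1.66e-13). MSTRG.77231 had 1 count in each of the 4 mature libraries and 18 to 22 in the immature ones, MSTRG.9570 1 to 4 against 16 to 23, MSTRG.71898 1 or 2 against 9 to 14, and MSTRG.104443 0 or 1 against 3 to 10. All 5 were also called in tKO mice, where MSTRG.49704 had 12 to 32 counts in mature and 80 to 170 in immature libraries. MSTRG.77231, MSTRG.9570, MSTRG.71898 and MSTRG.104443 passed the filter on low counts through immature mTEC alone, in both sets of mice. Their calls are therefore given as a description.

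Markers of other cells also differed between the populations. The summed level of 6 genes of thymocytes and blood cells (Cd4, Cd8a, Cd3e, Ptprc, Rag1 and Ptcra) was 45.3 to 57.9 CPM in mature and 3.42 to 23.2 CPM in immature libraries, with Ptcra at 0.422 to 1.96 CPM in the former and 0 to 0.54 CPM in the latter. Of 3 cortical epithelial genes, Prss16 was lower in mature mTEC, at no more than 53.8 CPM against at least 70.1 CPM, Ly75 higher, at no less than 84.0 CPM against at most 78.9 CPM, and Psmb11 overlapped, at 8.78 to 16.8 against 8.54 to 15.7 CPM, which left their sum at 135 to 172 and 131 to 183 CPM. Fibroblast genes (Col1a1, Col1a2 and Pdgfra) ran from 212 to 302 CPM in mature and from 93.1 to 961 CPM in immature libraries, the latter highest in the Rbfox2 line. Their part in the bias of assembled loci was not tested. In bulk libraries fewer cells of a type and less RNA per cell cannot be told apart.

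Differences between the populations recurred in separate mice. In tKO mice 587 members were tested between mature and immature mTEC and 392 were called higher and 78 lower, beside a background of 38.1% (26.3% higher and 11.9% lower). Of the 491 members called in control mice, 408 could be tested in tKO mice, 389 of them were called there, all in the same direction, and none of the 408 had the opposite sign. The 389 were 95.3% of the calls that could be tested again and 82.8% of the 470 calls in tKO mice. These shares were not computed over all rows, so they have no background and do not set members apart from other rows. Here too a locus could pass the filter on low counts through the population in which it was high. No member was called for a difference of the maturation effect between tKO and control mice, of 740 tested, beside a background of 0 (edgeR's quasi-likelihood test, adjusted p under 0.05), and 32 reached an unadjusted p under 0.05.

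By detection and correlation, single loci were less repeatable between mice than Ensembl genes, which have higher counts. Of the members with a count in either replicate mouse of a condition, between 77.5% and 82.7% had a count in both in mature mTEC and between 44.3% and 49.9% in immature mTEC. For members with 50 or more summed counts the median of this share over the 8 conditions was 83.3%, against 63.7% for all members. Across all members, which are not independent replicates, log2 CPM of replicate mice correlated with Pearson's r of 0.824 to 0.847 in mature and 0.759 to 0.790 in immature mTEC. Over Ensembl genes with 10 or more summed counts r was 0.970 to 0.982. Of these genes 92.9% to 94.7% had a count in both mice in mature mTEC, and 84.6% to 86.2% in immature mTEC. Neither measure was compared at a like count.

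In loci with 10 or more counts over a replicate pair, the chi-square between both mice per degree of freedom was 1.48 to 2.17 for members and 1.79 to 2.82 for Ensembl genes, which have higher counts, where 1 is counting noise alone. At a like level members varied more than protein-coding genes. The biological coefficient of variation estimated by edgeR in mature mTEC had a median of 17.9% for members at 2 to 4 CPM and 17.1% for protein-coding genes of the same level. At 8 to 16 CPM these medians were 12.4% and 11.2%, and over 32 CPM 8.61% (n = 29) and 6.78% (n = 6776). In immature mTEC they were 19.3% and 18.7% at 4 to 8 CPM and 10.6% (n = 16) and 7.56% (n = 6739) over 32 CPM. The class over 32 CPM has no upper bound, so levels within it may differ. Long non-coding genes had medians of 17.2% at 2 to 4 CPM in mature and 17.4% at 4 to 8 CPM in immature mTEC. At 16 to 32 CPM in immature mTEC the median was 11.4% both for them and for members.

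Between tKO and control mice few members differed beyond the spread between mice. In mature mTEC 931 members were tested in each line and none was called, beside backgrounds of 0.0166% (Rbfox1) and 0.0277% (Rbfox2) of all rows tested (edgeR's quasi-likelihood test), while 55 and 71 reached an unadjusted p under 0.05 (5.91% and 7.63%, against 3.35% and 5.34% of all rows) and DESeq2 called 0 in both. With the replicate number as a block 1 was called in the Rbfox1 line, MSTRG.116594. In immature mTEC 172 members were tested, and 1 was called in the Rbfox1 line (background 0.0306%) and 0 in the Rbfox2 line (background 0.0536%), where DESeq2 also called 0. There 25 members in the Rbfox1 and 16 in the Rbfox2 line reached an unadjusted p under 0.05 (14.5% and 9.30%, against 5.85% and 6.26% of all rows). With both lines together, 4 tKO against 4 control mice, 0 of 791 members were called in mature (background 0.0172%) and 0 of 146 in immature mTEC (background 0.0317%), with 72 and 24 at an unadjusted p under 0.05 (9.10% and 16.4%, against 4.41% and 7.44% of all rows) and 0 by DESeq2. With 2 mice a group only large changes could be called, and a locus that missed the threshold is not shown to be unchanged.

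The 1 called locus was MSTRG.52583. In immature mTEC its counts were 113 and 149 in Rbfox1 controls and 232 and 315 in Rbfox1 tKO mice, without overlap. It rose there by 1.29 ± 0.18 on the log2 scale (SE; edgeR's quasi-likelihood test, Benjamini-Hochberg adjusted p = 0.00496). The call was lost without Rbfox1 control mouse 2 (adjusted p = 0.0961) and without Rbfox1 tKO mouse 3 (adjusted p = 0.126 in the same test). In the Rbfox2 line the counts were 208 and 159 in controls against 217 and 201 in tKO mice, or 95.0 to 112 against 138 to 151 CPM, a log2 difference of 0.49 ± 0.18 (SE) that was not called.

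Some of the loci with the largest summed counts were higher in immature mTEC of tKO mice by less than the fold threshold. Over both lines 4 of 146 members had an adjusted p under 0.05 with a fold under 2, all higher in tKO mice, beside a background of 0.111%, or 14 of 12627 rows, with an adjusted p under 0.05 (edgeR's quasi-likelihood test, Benjamini-Hochberg adjusted). MSTRG.18400 had CPM of 54.3 and 48.0 in Rbfox1 and 66.5 and 81.2 in Rbfox2 controls, against 84.5 and 95.3 and 113 and 115 in the tKO mice. The 4 tKO libraries lay above the 4 controls, by 0.73 ± 0.10 on the log2 scale (SE; edgeR's quasi-likelihood test, Benjamini-Hochberg adjusted p = 0.00265). MSTRG.59595 was higher by 0.74 ± 0.12, MSTRG.52583 by 0.88 ± 0.15 and MSTRG.64863 by 0.76 ± 0.15 (SE), with adjusted p of 0.0125, 0.0217 and 0.0496 in that test. In the Rbfox2 line alone MSTRG.59595 had an adjusted p of 0.0193 in that test with a log2 difference of 0.97, and passed the fold threshold without Rbfox2 control mouse 2 (1.19, adjusted p = 0.0183). In mature mTEC the same 4 differed by 0.095 to 0.40 on the log2 scale and none had an adjusted p under 0.05 in that test. In at least 1 alternative setting MSTRG.64863 did have an adjusted p under 0.05 in mature mTEC, with the same sign and still under the fold threshold.

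An annotated gene moved with them. Gm23935, a non-coding Ensembl gene chosen after its values were seen, stood at 366 and 437 CPM in immature mTEC of Rbfox1 controls and 716 and 1044 in Rbfox1 tKO mice, and at 778 and 768 against 1378 and 1407 CPM in the Rbfox2 line, log2 differences of 1.13 ± 0.14 and 0.87 ± 0.14 (SE; edgeR's quasi-likelihood test, Benjamini-Hochberg adjusted p = 0.00152 and 0.017). Foxn1, whose locus carries Cre in these mice, was also higher in tKO mice, by 0.80 ± 0.093 on the log2 scale in immature mTEC. Endothelial genes (Pecam1 and Cdh5) summed to 112 to 160 CPM in immature mTEC of Rbfox2 tKO mice against 53.2 to 95.1 CPM in the controls, and overlapped between genotypes in the Rbfox1 line. Fibroblast genes summed to 770 to 961 against 590 to 760 CPM in immature mTEC of the Rbfox2 line and to 174 to 235 against 93.1 to 193 CPM in the Rbfox1 line. Among them Col1a2 stood at 122 and 99.4 CPM in Rbfox1 tKO mice against 47.8 and 92.8 CPM in controls, and at 509 and 421 against 411 and 337 CPM in the Rbfox2 line, without overlap within a line, and Pdgfra at 16.6 and 13.3 against 9.83 and 11.4 CPM in the Rbfox1 line. Col1a1 overlapped between genotypes in both lines, and Pdgfra overlapped in the Rbfox2 line. The part of any of these in the rise of the assembled loci was not tested.

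**Figure D4:**
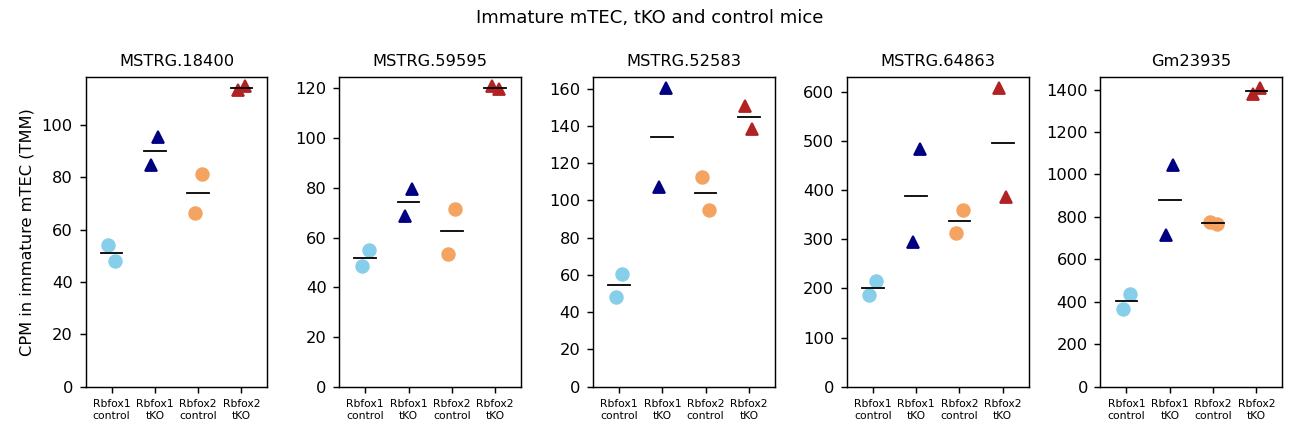
CPM after TMM scaling in immature mTEC for 4 assembled loci and the Ensembl gene Gm23935. Each symbol is 1 mouse and the bar is the mean of the 2 mice of a group. In all 5 panels both tKO mice lie above both controls of their line.

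The share of all counts held by assembled loci was higher in tKO mice as well, a comparison added after the values were seen. In immature mTEC it was 0.408% and 0.484% in Rbfox1 tKO mice against 0.371% and 0.363% in controls, and 0.446% and 0.387% in Rbfox2 tKO mice against 0.343% and 0.378%. In mature mTEC it was 0.975% and 0.995% against 0.921% and 0.970% in the Rbfox1 line, and 0.885% and 0.849% against 0.821% and 0.838% in the Rbfox2 line. For members, the groups did not overlap within a line and 4 of 4 tKO mice lay above the control of the same number in each population. The mean difference was 0.068 percentage points in immature and 0.038 in mature mTEC. An exact permutation test within lines, two-sided, gave p = 0.0556 in both populations, the smallest that its 36 arrangements allow, so the design could not pass 0.05. Other classes moved likewise in that test, though not each in both populations. Long non-coding genes were higher by 0.052 points in mature mTEC in 4 of 4 pairs (exact permutation p = 0.0556) and by 0.028 points in immature mTEC in 3 of 4 (exact permutation p = 0.111). Pseudogenes were higher by 0.131 points in immature mTEC in 4 of 4 pairs (exact permutation p = 0.0556). In mature mTEC pseudogenes differed by 0.049 points, with 3 of 4 pairs higher (exact permutation p = 0.444). The remaining Ensembl biotypes, as 1 class, were higher by 0.019 points in mature and 0.108 in immature mTEC, in 4 of 4 pairs each (exact permutation p = 0.0556). Gm23935, chosen after its values were seen, is itself counted among these non-coding classes. Their shares were not computed without it, so they are not separate from its rise. Without the 10 loci with the largest summed count the mean difference was 0.036 points (p = 0.111) in immature and 0.019 points (p = 0.333) in mature mTEC by the same exact permutation test, and the genotypes then overlapped in the Rbfox2 line in both populations and in the Rbfox1 line in mature mTEC. In immature mTEC the number of members detected at equal depth was 1385 and 1472 in Rbfox1 tKO mice against 1341 and 1359 in controls, without overlap, but 1178 and 1248 against 1122 and 1213 in the Rbfox2 line, with overlap.

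Across the 146 members tested in immature mTEC over both lines the median log2 difference of tKO from control was 0.19, with 100 of 146 above 0, against a median of 0.0016 and 6362 of 12627 over all rows tested. Pseudogenes showed a like shift, with a median of 0.15 and 317 of 416 above 0, as did the class of remaining Ensembl biotypes, with a median of 0.23 and 17 of 23. In mature mTEC the median of 791 members was 0.037 beside 0.0025 over all rows.

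Of the other loci with low p in the tKO comparisons, some had uneven controls or few counts. MSTRG.116594 had the lowest p among members in mature mTEC of the Rbfox1 line, with 4 and 5 counts in controls and 61 and 17 in tKO mice, and edgeR's quasi-likelihood test gave a Benjamini-Hochberg adjusted p of 0.306. With the replicate number as a block it was called (log2 difference 3.10, adjusted p = 0.0136 in that test), and likewise without Rbfox1 tKO mouse 3, Rbfox2 tKO mouse 1 or Rbfox2 tKO mouse 2 (adjusted p = 0.0256, 0.0457 and 0.0472). In the Rbfox2 line, however, it had 77 and 68 counts in controls and 69 and 26 in tKO mice, so the Rbfox1 controls stood apart from the other 6 mice. The difference of its tKO effect between lines was not called either (edgeR's quasi-likelihood test, Benjamini-Hochberg adjusted p = 0.354), except without Rbfox2 tKO mouse 1 (adjusted p = 0.0215). MSTRG.116214 was lower in mature mTEC of tKO mice of both lines, at 32, 32, 24 and 22 counts against 56, 69, 41 and 59 in controls, without overlap, and missed the threshold (log2 difference -0.96 ± 0.19, SE; edgeR's quasi-likelihood test, Benjamini-Hochberg adjusted p = 0.105).

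The remaining loci with the lowest p were not called. MSTRG.58438 (Rbfox1 line, mature) had 9 and 10 counts in tKO mice against 25 and 36 in controls, and MSTRG.50905 (Rbfox2 line, mature) 6 and 5 against 25 and 17, while MSTRG.73425 differed there by 0.56 ± 0.13 on the log2 scale (SE). No member was called for a difference of the tKO effect between lines, of 931 tested in mature (background 0.00555%) and 172 in immature mTEC (background 0.00766%), and 55 and 12 reached an unadjusted p under 0.05 (edgeR's quasi-likelihood test). The lowest p there belonged to MSTRG.116594 and MSTRG.91423 in mature and to MSTRG.6461 and MSTRG.51719 in immature mTEC. MSTRG.6461 had 46 and 132 counts in immature mTEC of Rbfox1 controls and 50 and 27 in tKO mice, against 17 and 2 and 33 and 34 in the Rbfox2 line, so that its controls varied widely, and it was called only without Rbfox1 control mouse 2 (edgeR's quasi-likelihood test, adjusted p = 0.0187). For the maturation effect the lowest p were those of MSTRG.18400 and MSTRG.47394, the latter with 21, 14, 16 and 18 counts in immature mTEC of controls and 34, 21, 37 and 36 in tKO mice.

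Some loci differed between individual mice. A term for the 8 mice, fitted over both populations, was called at an adjusted p under 0.05 in 29 of 740 members tested (3.92%), below the background of 5.21% of all 17442 rows (edgeR's quasi-likelihood test, Benjamini-Hochberg adjusted). The mouse term includes line, genotype and sex, and with these in the model 1 member was still called, MSTRG.60967. Without Rbfox2 control mouse 2 the term was called in 17 members.

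MSTRG.60967 had 71, 43, 44, 65 and 47 counts in mature mTEC of 5 mice, 26 and 14 in a further 2, and only 5 in Rbfox1 tKO mouse 2. In the immature library of that mouse it had 1 count, against 7 to 18 in the other mice, so the deficit was present in both samples of the animal. The adjusted p was 0.00109 for the whole mouse term and 0.0352 after line, genotype and sex by edgeR's quasi-likelihood test, and 0.0735 for the whole term without that mouse. MSTRG.60965 behaved alike, with 0 counts in both libraries of this mouse and 8 to 33 counts in mature libraries of the others.

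MSTRG.94036 varied from 18 to 175 counts between mature libraries, with the highest value in Rbfox2 control mouse 2 and the lowest in Rbfox1 tKO mouse 2 (edgeR's quasi-likelihood test, Benjamini-Hochberg adjusted p = 0.00173). MSTRG.94031, MSTRG.94034 and MSTRG.94035 were also called and also had their highest mature count in Rbfox2 control mouse 2, at 32, 61 and 53. Identifiers close in number cannot be read as places close in the genome, since the files give no position. Over the 29 loci, the correlation across the 8 mice between mature and immature log2 level was above 0 in all 29, with a median of 0.78, as the choice of the loci requires.

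Lines differed in a set of loci that overlapped the set called for the mouse term, by a comparison added after the values were seen. MSTRG.39563, MSTRG.40140, MSTRG.43635 and MSTRG.39633, named below, belong to both sets. Of 791 members tested in mature mTEC 36 were called between the 4 Rbfox1-line and the 4 Rbfox2-line mice (4.55%), beside a background of 1.02%, with 24 higher in the Rbfox1 line and 12 lower (background 0.753% and 0.264%). In immature mTEC 16 of 146 were called, beside a background of 4.77%, with 12 higher in the Rbfox1 line and 4 lower (background 2.96% and 1.81%). As with maturation, the filter on low counts could be passed through the line in which a locus was high. The numbers of calls therefore describe only the loci tested. MSTRG.39563 was the plainest case. Mature libraries of the Rbfox1 line held 12, 21, 12 and 18 counts of this locus, and all 4 of the Rbfox2 line held 0. Since this locus passed the filter through the Rbfox1 line alone, its difference is given as a description. MSTRG.75843, chosen after its values were seen, had no count in either library of both Rbfox1 controls and of Rbfox1 tKO mouse 2, but 11 and 5 counts in Rbfox1 tKO mouse 3, and 2 to 16 counts in every library of the Rbfox2 line.

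Among the loci most clearly different between lines in mature mTEC, MSTRG.40140 had 91 to 104 counts in the Rbfox1 and 27 to 42 in the Rbfox2 line, and MSTRG.10913 67 to 83 against 20 to 31, without overlap (log2 differences 1.35 ± 0.15 and 1.28 ± 0.17, SE; edgeR's quasi-likelihood test, Benjamini-Hochberg adjusted p = 6.45e-06 and 3.98e-05). MSTRG.43635 and MSTRG.39633 were higher in the Rbfox1 line as well, by 1.03 and 1.81 on the log2 scale. In immature mTEC MSTRG.75896 had 18 to 36 counts in the Rbfox1 and 1 to 7 in the Rbfox2 line, MSTRG.26883 14 to 74 against 2 to 9, MSTRG.45174 24 to 41 against 5 to 12 and MSTRG.49508 26 to 53 against 7 to 18. Aire moved with line in the same libraries, at 211 to 297 CPM in immature mTEC of the Rbfox1 and 19.5 to 53.7 CPM of the Rbfox2 line, and the fibroblast genes summed to 93.1 to 235 against 590 to 961 CPM. Line and whatever else went with it cannot be told apart here, and the part of these markers was not tested.

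**Figure D5:**
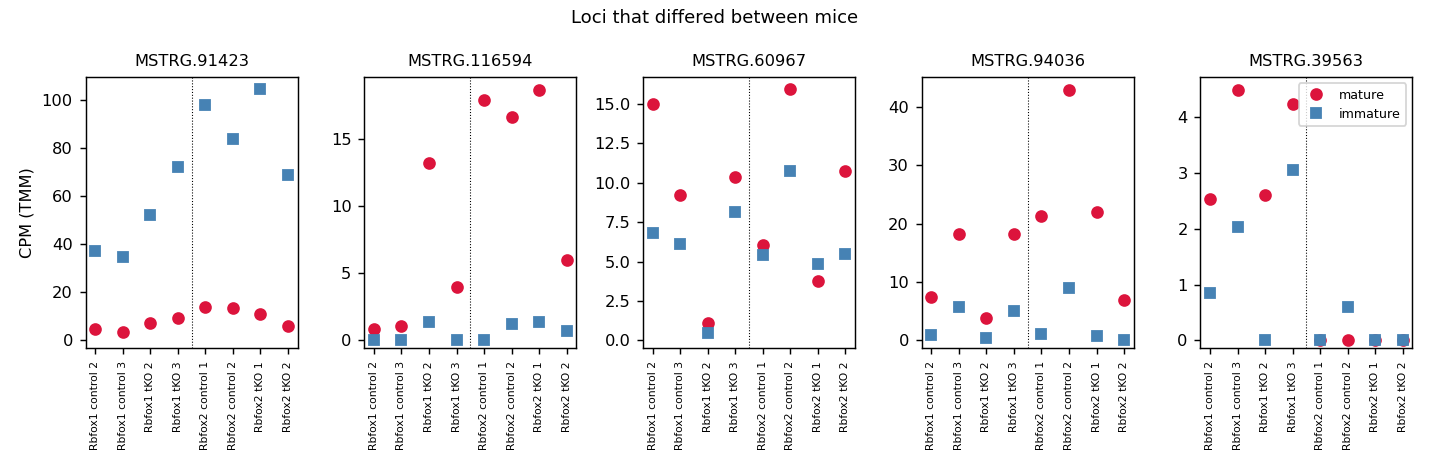
CPM after TMM scaling of 5 assembled loci in the 8 mice, with mature (circles) and immature (squares) libraries of a mouse above one another and a dotted line between the Rbfox1 and Rbfox2 lines. MSTRG.60967 is lowest in both libraries of Rbfox1 tKO mouse 2, MSTRG.94036 is highest in both libraries of Rbfox2 control mouse 2, and MSTRG.39563 is at 0 in all mature libraries of the Rbfox2 line.

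No member was called for sex. Between 4 male and 4 female mice 0 of 931 members were called in mature (background 0.0277%) and 0 of 172 in immature mTEC (background 0.0536%) by edgeR's quasi-likelihood test, with 59 and 14 at an unadjusted p under 0.05, and leaving out 1 mouse at a time gave 0 to 3 calls in mature mTEC.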

How the data were processed

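Poly(A) RNA of 8 mature and 8 immature mTEC libraries from 8 mice was sequenced by the authors, aligned to mm10 with HISAT2 2.1.0, cleaned of duplicates with Picard 2.10.9 and counted with featureCounts 1.6.0, as the study's methods and the submitters' processing notes name them. Annotation was Ensembl plus loci that the authors assembled with StringTie from mTEC and peripheral tissues. For the strand options of counting, the sources used here give nothing. The deposited unit is raw counts per gene or locus, from 1506134 to 4636367 a library, and no column was left unmapped. Column headers end in 14500000 for mature and 10000000 for immature libraries, and the study's methods state that reads were down-sampled where appropriate. The difference in depth between the populations may therefore have been set in processing. The files used here hold no positions for the loci.

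Groups came from the sample labels. Tests used edgeR 4.0.16 under R 4.3.3 (TMM scaling, filterByExpr with a minimum count of 10, quasi-likelihood test), with Benjamini-Hochberg adjustment over all rows tested. A call needed an adjusted p under 0.05 and a fold over 2, or the adjusted p alone for interactions and the term for mice. Maturation was fitted on 8 control or 8 tKO libraries, tKO effects within a population. Shares were compared by exact permutation over mice. Thinning drew counts without replacement. Ensembl classes came from GENCODE M21, which held 53360 of 53464 Ensembl identifiers. The scripts were tested on simulated counts. Members and marker lists were chosen with earlier results of these data known. Loci were named by rule: the 10 largest sums, the 5 largest called and non-overlapping maturation differences in each direction, called loci or the 2 with the lowest p in each tKO comparison, and the 5 with the lowest p among loci called between mice. The comparison of lines, its named loci, the tKO comparison of shares, the ratio to long non-coding genes, and the within-line maturation values were added after the data were seen, as were the remarks on Gm23935, MSTRG.75843, MSTRG.60965, MSTRG.94031, MSTRG.94034 and MSTRG.94035. Alternatives were DESeq2 1.42.0, library totals or RLE scaling, other filters, adjusted p alone, the replicate number as a block, all 16 libraries in 1 fit, a limit of 50 summed counts, and leaving out each mouse.

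The mature and the immature library of a mouse share its number and deviated together (r from 0.167 to 0.286 over 11545 rows), so these libraries are paired by animal, though maturation was tested without a block. A tKO and a control mouse of the same number share line and sex, and the study names sex-matched littermates as controls without tying them to numbers. Such pairs deviated together in mature mTEC (r from 0.211 to 0.325) and less in immature mTEC (r from 0.0952 to 0.107). With 2 mice a group both pairs of a line have the same r. The tKO tests had no block, and the blocked value is given where it changed a call.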

Additional observations from a re-analysis of the deposited data

Results flagged for a closer look

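Groups of 4 libraries were examined for the named loci, the share of counts and the number of loci detected at equal depth, 162 groups in all. In 14, all of named loci, a value stood apart from the other 3 by more than Dixon's critical value for 4 samples, where chance gives about 1 in 20. That rate does not hold where 3 libraries are at 0, since any count in the remaining library then exceeds the critical value. Several groups below are of this kind, and each group held mice of both lines. In CPM, MSTRG.18400 stood at 143.7 in mature mTEC of Rbfox1 control mouse 3 against 193.7 to 196.7 in the other controls, MSTRG.71898 at 0.4666 in Rbfox2 control mouse 1 against 0.2112 to 0.2452, and MSTRG.49704 at 7.356 in Rbfox2 control mouse 2 against 5.49 to 5.782. MSTRG.7234 reached 13.89 in mature mTEC of Rbfox1 tKO mouse 3 against 9.633 to 9.987 in the other tKO mice. In immature mTEC of controls MSTRG.116594 had 1.194 in Rbfox2 control mouse 2 and 0 in the others.

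The remaining 9 were immature libraries of tKO mice, 7 of them from Rbfox1 tKO mouse 3. In that library MSTRG.7234, MSTRG.27273 and MSTRG.58438 stood at 0.5096 CPM, which is 1 count, and MSTRG.39563 at 3.058 CPM, with 0 in the other tKO mice. MSTRG.94036 stood there at 5.096 CPM against 0 to 0.695, MSTRG.40140 at 4.077 against 0 to 0.6883 and MSTRG.6461 at 13.76 against 22.94 to 23.4. MSTRG.9660 had 1.386 CPM in Rbfox1 tKO mouse 2 and 0 in the others, and MSTRG.116214 had 3.475 CPM in Rbfox2 tKO mouse 1 against 0.6883 to 1.019.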

How the results depend on the processing

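No value of a named locus reversed its direction. Of 529 recomputed values of 42 loci in their comparisons 504 kept direction and call, 11 lost the call and 14 gained it, and 28 of the 42 kept both throughout. The filter moved most counts: without it the members called were 1231 (maturation in controls) and 1527 (tKO mice), 2, 3, 4 and 2 (Rbfox1 mature, Rbfox2 mature, Rbfox1 immature, Rbfox2 immature tKO), 2 in each population over both lines, 2 and 1 for the difference of tKO effect between lines in mature and immature mTEC, 1 for the difference of maturation effect, 117 between mice, 2 and 1 for sex, and 87 and 50 between lines. With 10 or more counts in every library maturation gave 18 and 23 calls and tKO over both lines in immature mTEC 1, as did all 16 libraries in 1 fit. DESeq2 gave 877 and 867 maturation calls, from more loci tested. By adjusted p alone tKO calls in immature mTEC were 1 in the Rbfox2 line and 4 over both lines. With genotype, line and sex in the model 1 member was called between mice. The share of members seen in both replicate mice was 83.3% at a limit of 50 summed counts, against 63.7%. Unless a background is given above, the counts of calls in this section are printed without the share called over all rows. They show how the number of calls moved with the setting and do not set members apart from other rows. Causes were not tested.

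With the replicate number as a block 488 and 463 members were called for maturation in control and tKO mice, and 1 in Rbfox1 mature mTEC, and no other count of members changed.

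Leaving out 1 mouse at a time gave 555 to 617 and 510 to 575 maturation calls, 0 to 1 for Rbfox1 mature, 0 to 3 for Rbfox1 immature (3 without Rbfox1 tKO mouse 2), 0 to 1 for Rbfox2 immature and both lines immature tKO effects, 0 to 1 for each interaction, 17 to 31 between mice, 0 to 3 for sex in mature mTEC, and 28 to 40 and 15 to 24 between lines. MSTRG.43635 fell below the fold threshold between lines in 4 of these settings. With low counts, small changes of most loci were not detectable at this depth.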
